A study of Mus musculus with 8 samples.

Results

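The 10 genes described here are markers of mast cells and eosinophils, and were taken as a fixed list by symbol from a table of 27179 genes, in which all 10 were found. Mast cells are represented by the granule proteases Cpa3, Mcpt4, Cma1 and Tpsb2, the receptor tyrosine kinase Kit, the IgE receptor subunits Ms4a2 and Fcer1a, and the histamine-forming enzyme Hdc, and eosinophils by the surface lectin Siglecf and the granule peroxidase Epx. RNA of whole primary tumours was sequenced from BALB/c mice, female and in early adulthood per the study's methods, whose mammary fat pad had received 100000 cells of 4T1.13, a metastatic mouse mammary carcinoma line. The 8 tumours fall into a 4T1.13-VC (vector control) and a 4T1.13-miR-21-KD group of 4 each. All were recovered at day 14 according to the labels, whereas the study's methods give an earlier day. Those methods place recovery at the start of regression of the miR-21-KD tumours, and the part of growth state was not tested here. Both lines carried the miArrest lentiviral vector with mCherry and hygromycin resistance. In miR-21-KD cells its H1 promoter drove an RNA that sequesters mature miR-21, in VC cells a scrambled sequence. The knockdown thus acted in the injected tumour cells, and the mast cells and eosinophils of the tumours came from untreated hosts. Each line was a single pool of 6 clones, so an effect of the sequestering RNA cannot be told apart from a difference between the pools.

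Mast cells are long-lived tissue cells that mature under the Kit ligand stem cell factor, carry IgE on a receptor of alpha, beta and gamma chains, and store histamine, heparin and a set of chymases, tryptases and carboxypeptidase A3 in their granules. Eosinophils are granulocytes that depend on interleukin-5 and enter tissue through the receptor Ccr3, the target of eotaxins. In mice they bear Siglec-F, which alveolar macrophages also carry, and store eosinophil peroxidase, major basic protein and ribonucleases, whose transcripts are made mainly in the bone marrow.

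The comparison asks whether these transcripts differed between tumours of cells with and without the miR-21-sequestering RNA. The library totals ranged from 12134849 to 13592695 counts, and 14382 genes had enough counts for the test with edgeR, Epx not among them. Values are given as CPM, the read count per unit of library size, with TMM scaling, and a gene is called changed at a Benjamini-Hochberg adjusted p under 0.05 over all tested genes. The limit for a gene without reads in a tumour is 3 counts, or 0.221 to 0.247 CPM before TMM scaling, which covers counting error only. Over all tested genes 39.1% were called, 19.6% with higher and 19.5% with lower levels in miR-21-KD tumours, and the median log2 fold change was -0.01. Of the 9 tested genes of the list, 3 were called, all of them higher in miR-21-KD tumours (Kit, Hdc and Siglecf). The median log2 fold change of the 9 was 0.40. None was called lower. In RNA of whole tumours, a change in the number of cells of a type and a change in RNA per cell cannot be told apart.

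The sequence of the microRNA that the knockdown sequesters is shown because none of the 10 genes carried its seed match. The seed, bases 2 to 8, is in capitals, and RefSeq places the mature microRNA at chr11:86584120-86584141 on the minus strand of GRCm38.p6.
mmu-miR-21a-5p: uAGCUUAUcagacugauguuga
The 7-base complement of this seed, ATAAGCT, was found in the longest annotated 3′ untranslated region of 0 of the 10 genes and of 1511 of 21028 genes in all (7.19%). The 3′ untranslated regions searched were between 185 bases (Cpa3) and 2177 bases (Kit) long.

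The 4 granule protease genes were expressed in every tumour and did not pass the test, with estimates from a log2 fold change of -0.12 to 0.40. Cpa3 (Entrez 12873, chr3:20215620-20242181, minus strand), which encodes the mast cell carboxypeptidase, had 54.4, 46.7, 75.8 and 33.6 CPM in the VC tumours 1 to 4 and 54.6, 54.7, 37.4 and 46.6 CPM in the miR-21-KD tumours 1 to 4. The miR-21-KD values all lay inside the VC range, whose highest value was that of VC 3 and whose lowest that of VC 4. The means were 52.6 ± 17.6 and 48.3 ± 8.21 CPM (SD, n = 4 per group), and the log2 fold change was -0.12 (95% interval -0.66 to 0.41, adjusted p = 0.699 from edgeR). Mcpt4 (Entrez 17227, chr14:56059629-56062313, minus strand), a chymase of connective tissue mast cells, had 68.5, 56.4, 105 and 33.6 CPM in the VC tumours and 60.9, 92.8, 52.3 and 58.1 CPM in the miR-21-KD tumours. Here too every miR-21-KD value lay between VC 4 and VC 3. The log2 fold change of Mcpt4 was 0.00 (95% interval -0.73 to 0.74, adjusted p = 0.994 from edgeR).

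Cma1 (Entrez 17228, chr14:55941451-55944675, minus strand), a second chymase from the same stretch of chromosome 14, had 39.4, 31.2, 51.3 and 22.6 CPM in the VC tumours and 47.1, 53.7, 40.4 and 48.9 CPM in the miR-21-KD tumours. The means of Cma1 were 36.1 ± 12.3 and 47.5 ± 5.53 CPM (SD, n = 4 per group). All miR-21-KD values lay above 3 of the VC values, and VC 3 lay among them, with a log2 fold change of 0.40 (95% interval -0.12 to 0.91, adjusted p = 0.188 from edgeR). Tpsb2 (Entrez 17229, chr17:25366305-25369098, plus strand), a tryptase, had 55.6, 51.8, 96.8 and 37.5 CPM in the VC tumours and 83.8, 91.8, 62.3 and 77.2 CPM in the miR-21-KD tumours. As for Cma1, the other 3 VC tumours were the lowest, and VC 3 was here the highest of all 8. The log2 fold change of Tpsb2 was 0.38 (95% interval -0.22 to 0.99, adjusted p = 0.272 from edgeR), and without VC 3 it was 0.70 (adjusted p = 0.0376 from edgeR), the only setting in which a protease gene was called. Per kilobase of exon, the proteases had the highest mean levels of the 10 genes in VC tumours, with 59.5 CPM per kb for Mcpt4, 37.9 for Tpsb2, 34.7 for Cpa3 and 33.1 for Cma1. With SDs of 11.2 to 26.9 CPM per kb, neighbours in this order differed by less than the larger of their SDs. They were followed by Fcer1a with 7.23, Hdc with 7.13, Kit with 3.97, Siglecf with 2.47, Ms4a2 with 0.408 and Epx with 0.273 CPM per kb. In miR-21-KD tumours the 4 proteases again led, and Hdc (13.9 CPM per kb), Siglecf (9.62) and Kit (7.21) came before Fcer1a (6.92).

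The 4 proteases varied together from tumour to tumour. Their summed level was 218, 186, 329 and 127 CPM in the VC tumours and 246, 293, 192 and 231 CPM in the miR-21-KD tumours, with means of 215 ± 84.6 and 241 ± 41.6 CPM (SD, n = 4 per group). VC 3 was thus the highest and VC 4 the lowest of all 8 tumours in this sum. With the group means removed, the log2 CPM of any pair of the 4 correlated at r = 0.933 to 0.975 over the 8 tumours, each a single library of similar depth, and is given as a description. Fcer1a correlated with the proteases at 0.732 to 0.882, whereas Kit, Hdc and Siglecf did so at -0.536 to 0.161. Among all tested genes, the 6 with the highest correlation with Cpa3 over these 8 tumours were Tpsb2 (0.975), Cma1 (0.960), the gene with Entrez 407824, for which no symbol was matched (0.947), Mcpt4 (0.933), Zfp862-ps (0.930) and Lrrc49 (0.928). Reads shared with near-identical copies were of limited extent, since 5.48% of the 50-base stretches of Mcpt4 transcripts also occurred in Cma2 and 5.38% of those of Cma1 in Gm48934, and none of those of Cpa3 or Tpsb2 occurred in another gene.

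**Figure D1:**
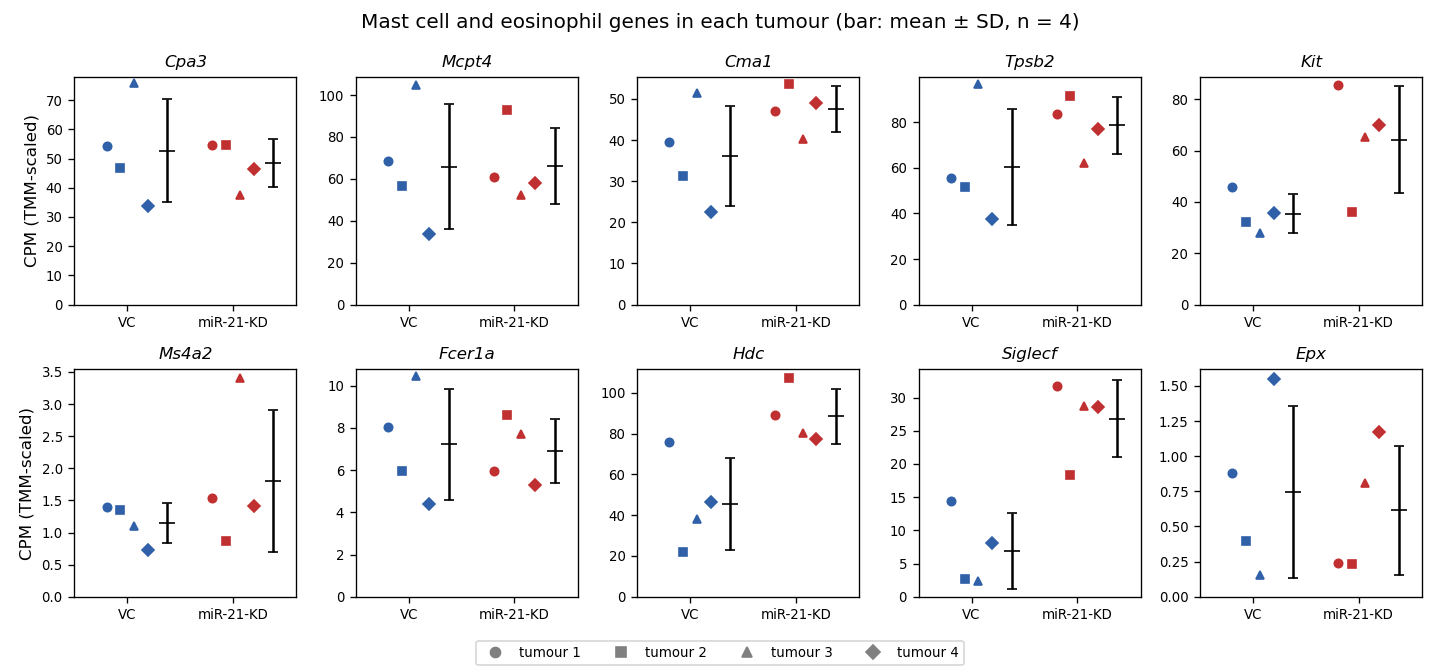
Levels of the 10 genes in each tumour, in TMM-scaled CPM on linear axes from 0. Symbols mark the tumour number within each group, and bars give mean ± SD (n = 4). For Hdc and Siglecf all miR-21-KD tumours lie above all VC tumours, and for the 4 proteases VC 3 lies at or near the top and VC 4 at the bottom.

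The promoters of Cpa3, Mcpt4 and Siglecf are shown as examples of genes with a GATA site from the group that varied together and from outside it. Each runs from 250 bases before the start of the RefSeq transcript to 50 after it, 5′ to 3′ on the strand of the gene (GRCm38.p6), with the GATA motif in capitals. The windows lie at chr3:20242132-20242431 (minus), chr14:56062261-56062560 (minus) and chr7:43351091-43351390 (plus).
Cpa3: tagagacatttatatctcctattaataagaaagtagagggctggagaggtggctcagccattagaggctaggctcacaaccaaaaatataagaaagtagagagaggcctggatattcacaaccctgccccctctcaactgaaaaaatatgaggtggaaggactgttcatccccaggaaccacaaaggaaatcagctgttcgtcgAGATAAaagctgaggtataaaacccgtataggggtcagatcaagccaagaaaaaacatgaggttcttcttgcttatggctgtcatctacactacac
Mcpt4: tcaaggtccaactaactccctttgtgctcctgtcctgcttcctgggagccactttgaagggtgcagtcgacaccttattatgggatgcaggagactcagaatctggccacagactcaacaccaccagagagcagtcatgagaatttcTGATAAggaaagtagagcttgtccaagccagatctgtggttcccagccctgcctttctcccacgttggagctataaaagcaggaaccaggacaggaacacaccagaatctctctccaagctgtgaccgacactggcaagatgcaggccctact
Siglecf: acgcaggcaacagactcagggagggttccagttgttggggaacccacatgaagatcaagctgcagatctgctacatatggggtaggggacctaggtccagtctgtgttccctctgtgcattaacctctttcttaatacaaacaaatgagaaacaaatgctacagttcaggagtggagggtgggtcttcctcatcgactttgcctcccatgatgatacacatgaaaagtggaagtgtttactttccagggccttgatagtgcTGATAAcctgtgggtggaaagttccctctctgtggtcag
The motif was searched as AGATAA or TGATAA on both strands. GATA factors such as Gata1 and Gata2 bind it in mast cells, eosinophils and basophils. It was present in 5 of the 9 genes with a promoter window (Tpsb2 had none), and in 5122 of 27025 genes in all (19%). It began 46 bases before the start in Cpa3, 103 before in Mcpt4, 92 before in Fcer1a, and 12 after the start in Siglecf, and Ms4a2 held 3 matches. The Mitf-type motif CACATG, which does not overlap the GATA letters, was in the windows of Fcer1a and Siglecf and in those of 3818 genes in all (14.1%). The windows of Cma1, Kit, Hdc and Epx held neither motif.

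Kit, the receptor for stem cell factor, was higher in miR-21-KD tumours. Kit (Entrez 16590, chr5:75574916-75656722, plus strand) had 45.7, 32.1, 28.0 and 35.8 CPM in the VC tumours and 85.7, 36.0, 65.3 and 69.9 CPM in the miR-21-KD tumours. In 3 of the 4 miR-21-KD tumours it lay above every VC tumour, while miR-21-KD 2 lay between VC 4 and VC 1. The mean rose from 35.4 ± 7.60 to 64.2 ± 20.8 CPM (SD, n = 4 per group), and the log2 fold change was 0.86 (SE 0.26, adjusted p = 0.0300 from edgeR) or 1.81-fold. The call was lost without VC 2, VC 3, VC 4, miR-21-KD 1, miR-21-KD 3 or miR-21-KD 4, with a log2 fold change of 0.69 to 0.86 and an adjusted p of 0.0506 to 0.0837 (edgeR). Kit is also made by luminal progenitor cells of the mammary gland and by melanocytes. Of 10 luminal epithelium markers, 7 were called higher and Krt18 lower, beside 19.6% and 19.5% of all tested genes. Their median log2 fold change was 1.73. The 7 markers called higher had log2 fold changes from 0.88 (Cd14) to 4.23 (Prlr). The summed level of the list was 1438 to 2265 CPM in the VC tumours and 1139.8 to 2300.1 CPM in the miR-21-KD tumours. Krt8 and Krt18 held most of that sum in VC tumours, with means of 807 and 1021 CPM against 438 and 459 CPM in miR-21-KD tumours. The part of epithelial cells in the level of Kit was not tested.

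The subunits of the IgE receptor that are particular to mast cells and basophils did not pass the test. Fcer1a (Entrez 14125, chr1:173221284-173227214, minus strand), the IgE-binding alpha chain, had 8.03, 5.98, 10.5 and 4.40 CPM in the VC tumours and 5.97, 8.64, 7.70 and 5.31 CPM in the miR-21-KD tumours. All miR-21-KD values of Fcer1a lay inside the VC range, and VC 3 and VC 4 were its extremes as for the proteases. Its log2 fold change was -0.06 (95% interval -0.71 to 0.59, adjusted p = 0.874 from edgeR). Ms4a2 (Entrez 14126, chr19:11615523-11623719, minus strand), the signal-amplifying beta chain, had only 19, 17, 14 and 9 counts in VC and 19, 11, 42 and 18 counts in miR-21-KD tumours. One tumour, miR-21-KD 3, stood above the rest, and the others overlapped. At 1.15 ± 0.306 and 1.80 ± 1.11 CPM (SD, n = 4 per group), the log2 fold change of Ms4a2 was 0.64 (95% interval -0.34 to 1.63, adjusted p = 0.260 from edgeR), and 2.1% of its 50-base stretches occur in Ms4a4b. The gamma chain Fcer1g, which macrophages and other myeloid cells also use, rose from 217 ± 45.1 to 320.2 ± 40.2 CPM (SD, n = 4 per group, log2 fold change 0.56, adjusted p = 0.0243 from edgeR), although VC 4 overlapped the lowest miR-21-KD tumour.

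Hdc, the enzyme that makes histamine from histidine, was higher in miR-21-KD tumours. Hdc (Entrez 15186, chr2:126593667-126619299, minus strand) had 75.8, 21.8, 38.0 and 46.7 CPM in the VC tumours and 89.0, 107, 80.4 and 77.4 CPM in the miR-21-KD tumours. The groups did not overlap, but VC 1 came close to the lowest miR-21-KD tumour. Without overlap between the groups were 2 of the 9 tested genes, Hdc and Siglecf, against 35.1% of all tested genes. The mean of Hdc rose from 45.6 ± 22.6 to 88.5 ± 13.4 CPM (SD, n = 4 per group), and the log2 fold change was 0.96 (SE 0.32, adjusted p = 0.0439 from edgeR) or 1.94-fold. It was no longer called with no filter on low counts (adjusted p = 0.0666 from edgeR) or without any 1 tumour other than VC 1, where the log2 fold change was 0.72 to 1.02 and the adjusted p 0.0623 to 0.112 (edgeR). Basophils, neutrophils and other myeloid cells also transcribe Hdc. Of 11 tested neutrophil markers, 3 were called higher (Mmp9, Ltf and Il1r2) and none lower, beside 19.6% and 19.5% of all tested genes. Their median log2 fold change was 0.79. Their summed level was 874 to 1574 CPM in the VC tumours and 1684 to 3479.7 CPM in the miR-21-KD tumours. Mmp9, which other cells also make, held most of that rise, with 622 and 2112 CPM on average, and the 8 markers that did not pass had log2 fold changes from -0.16 (S100a8) to 0.90 (Retnlg), 5 of them above 0. The part of these cells in the level of Hdc was not tested.

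Siglecf showed the largest difference among the 9 tested genes, and Epx, the other eosinophil gene, was close to the limit of detection. Siglecf (Entrez 233186, chr7:43351341-43359531, plus strand) had 14.4, 2.63, 2.36 and 8.14 CPM in the VC tumours and 31.7, 18.4, 28.7 and 28.6 CPM in the miR-21-KD tumours. Every miR-21-KD tumour lay above every VC tumour, with VC 1 and miR-21-KD 2 as neighbours. The mean rose from 6.89 ± 5.69 to 26.8 ± 5.83 CPM (SD, n = 4 per group), and the log2 fold change was 1.96 (SE 0.54, adjusted p = 0.0229 from edgeR) or 3.88-fold. Without VC 2, VC 3, miR-21-KD 1, miR-21-KD 3 or miR-21-KD 4 the log2 fold change was 1.66 to 1.92 and the adjusted p 0.0503 to 0.0558 (edgeR). Without VC 1 the log2 fold change was 2.62 (adjusted p = 0.00840 from edgeR). Alveolar macrophages also carry Siglec-F, and all 6 tested genes of a list of their markers were called higher, among them Chil3. Over all tested genes 19.6% were called higher. The summed level of the list was 229.7 to 582 CPM in the VC tumours and 992 to 2523 CPM in the miR-21-KD tumours. Marco, the defining receptor of alveolar macrophages, had at most 10 counts in any tumour and was not tested. Several genes of that list are also made by other macrophages or by adipocytes. The part of macrophages in the level of Siglecf was not tested.

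Epx (Entrez 13861, chr11:87864000-87875536, minus strand) had 12, 5, 2 and 19 counts in VC and 3, 3, 10 and 15 counts in miR-21-KD tumours, which is 0.747 ± 0.613 and 0.615 ± 0.459 CPM (SD, n = 4 per group). The counts were too few for the test and overlapped between the groups. The label of eosinophil was thus not borne out by this granule gene, and the further granule genes below had too few counts or did not pass, apart from Ear2. Reads of all 10 genes were present in all 8 tumours. With the group means removed, the genes most correlated with Siglecf over the 8 tumours were Tspan7 (r = 0.986), Ccr3 (0.986), Inpp5j (0.985), Cd209b (0.974), Slc1a3 (0.971) and Hoxc4 (0.969). Ccr3 is the eotaxin receptor of eosinophils. Within the list itself, Siglecf correlated with Hdc at 0.739 and with Kit at 0.678.

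Among further mast cell genes, the granule proteases were again not called. Of 22 listed, 20 were tested, 7 were called higher, none was called lower, and the median log2 fold change was 0.61, so the calls were near the 39.1% of all tested genes, though all in one direction (19.6% of all tested genes were called higher). The proteases Tpsab1 (0.32), Mcpt1 (0.91), Mcpt2 (0.58) and Cma2 (1.21) did not pass, nor did the mast cell receptors Mrgprb1 (0.21) and Mrgprb2 (0.27). As for the 4 proteases described above, VC 3 was the highest VC tumour for Mcpt1 and VC 4 the lowest, at 157 and 18.1 CPM, and the miR-21-KD tumours lay between 91.7 and 197 CPM. The genes called were the transcription factors Gata2 (log2 fold change 0.64) and Mitf (0.95), the granule proteoglycan Srgn (1.80), the adenosine receptor Adora3 (0.74), the protease activator Ctsc (0.86), the interleukin-33 receptor Il1rl1 (0.88) and Fcer1g (0.56). Macrophages, T cells or other leukocytes also express Srgn, Ctsc, Mitf and Fcer1g. The count of 7 fell to 2 without VC 2 and to 3 without miR-21-KD 1, miR-21-KD 3 or miR-21-KD 4. Mcpt9 and Tpsg1 had at most 1 and 6 counts in any tumour and were not tested.

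Basophils share the IgE receptor and Hdc with mast cells. Their own proteases Mcpt8 and Prss34 had log2 fold changes of -0.08 and -1.21 and did not pass, with adjusted p of 0.927 and 0.434 (edgeR). Mcpt8 had 12.8, 2.71, 8.11 and 20.0 CPM in the VC tumours and 5.00, 19.4, 11.2 and 5.70 CPM in the miR-21-KD tumours. The groups overlapped, and VC 4, the lowest tumour for the mast cell proteases, was the highest of all 8 for Mcpt8. Of the 10 basophil genes, 4 were called higher and none lower, namely the receptor chain Il3ra (log2 fold change 1.30), the cytokines Il4 (1.54) and Il13 (2.04), and Gata2 (0.64). T cells and other cells also make these cytokines, 39.1% of all tested genes were called, near the 4 of 10 here, and Gata2, Il1rl1, Fcer1g and several others stand in more than one of the lists given here. The count of 4 fell to 2 without VC 2, VC 3, miR-21-KD 1, miR-21-KD 3 or miR-21-KD 4.

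Among further eosinophil genes, 8 of 11 tested were called higher in miR-21-KD tumours and none lower, beside 19.6% of all tested genes called higher, with a median log2 fold change of 1.24. Ccr3 had 25.6, 7.25, 6.69 and 16.7 CPM in the VC tumours and 43.1, 27.2, 42.3 and 49.9 CPM in the miR-21-KD tumours. As for Siglecf, VC 1 was the highest VC tumour and miR-21-KD 2 the lowest miR-21-KD tumour, and the groups did not overlap. Ccr3 had a log2 fold change of 1.53 (SE 0.42, adjusted p = 0.0236 from edgeR). The transcription factors of eosinophil development, Cebpe (2.02) and Gata1 (1.67), the lipoxygenase Alox15 (2.16), the ribonuclease Ear2 (2.71), the shared cytokine receptor chain Csf2rb (1.13), Il1rl1 (0.88) and the macrophage and eosinophil antigen Adgre1 (0.95) were also called. Ear2 also stands in the list of alveolar macrophage markers and Adgre1 in that of macrophages. The granule gene Prg2, which encodes major basic protein, had 4.71, 1.28, 1.97 and 8.80 CPM in the VC tumours and 4.76, 2.98, 10.1 and 7.97 CPM in the miR-21-KD tumours. Its groups overlapped, with a log2 fold change of 0.62 (adjusted p = 0.435 from edgeR), and Il5ra (1.24, adjusted p = 0.170 from edgeR) and Pirb did not pass either. Prg3, Ear1 and Ear6 had too few counts for the test, and Ear10 had 0 in all tumours. The count of 8 fell to 4 without VC 3, to 5 without miR-21-KD 3 and to 4 without miR-21-KD 4.

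**Figure D2:**
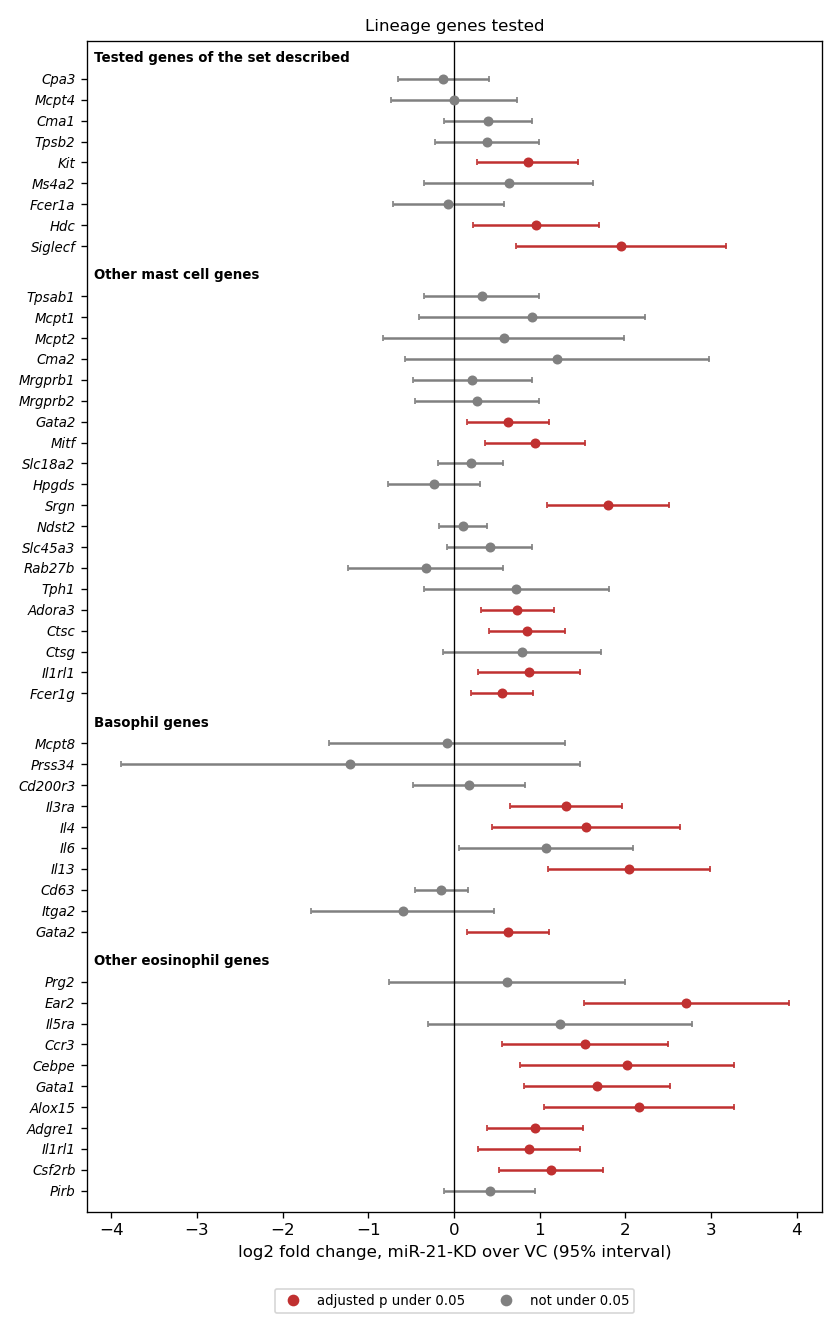
Log2 fold change of miR-21-KD over VC tumours with its 95% interval (edgeR, 4 tumours per group) for the tested mast cell and eosinophil genes and for further genes of mast cells, basophils and eosinophils. The intervals of the mast cell and basophil proteases and of Fcer1a include 0, and most further eosinophil genes lie above 0.

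Of 14 tested genes for factors that act on mast cells and eosinophils, 9 were called higher and 1 lower and 4 did not pass, beside 39.1% of all tested genes called and 19.6% called higher, with a median log2 fold change of 1.29. Il5, the survival factor of eosinophils, had 1.77, 0.638, 0.472 and 0.652 CPM in the VC tumours and 8.80, 2.91, 13.5 and 10.5 CPM in the miR-21-KD tumours. The groups of Il5 did not overlap, and its log2 fold change was 3.32 (SE 0.57, adjusted p = 0.00673 from edgeR). The VC mean of Il5 was only 0.882 CPM and its highest count in any tumour 167, so the size of the fold change rests on few VC reads. The chemokines Ccl8 (log2 fold change 2.02), Ccl7 (0.80) and Ccl5 (1.92), which attract leukocytes of several types, were also called. The eotaxin gene Ccl11, named after its value was seen, rose from 57.6 ± 31.7 to 204 ± 60.8 CPM (SD, n = 4 per group, log2 fold change 1.82, adjusted p = 0.0105 from edgeR), whereas the second eotaxin, Ccl24, had a log2 fold change of 0.05.

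The main growth factor of mast cells was not among the genes called. Kitl, which encodes stem cell factor, had 179.7, 207, 159.8 and 147 CPM in the VC tumours and 92.0, 179, 153 and 124 CPM in the miR-21-KD tumours. The groups overlapped, with a log2 fold change of -0.34 (95% interval -0.80 to 0.12, adjusted p = 0.200 from edgeR). The chemokine gene Ccl2, which attracts monocytes, was the only gene of this list called lower, with 289 ± 52.2 CPM in the VC tumours and 182 ± 14.1 CPM in the miR-21-KD tumours (SD, n = 4 per group, log2 fold change -0.66, adjusted p = 0.00932 from edgeR). The alarmin genes Il33 and Tslp had log2 fold changes of 1.04 and -1.75 and did not pass (adjusted p of 0.133 and 0.0674 from edgeR). Il3 and Il25 had too few counts for the test, and Il9 had 0 counts in every tumour. Of the 15 receptor genes for these factors, all tested, 12 were called higher and none lower, again beside 19.6% of all tested genes called higher. Il4ra (log2 fold change 0.91), Il7r (1.71), Csf2rb2 (1.26) and Crlf2 (0.91) had the smallest adjusted p. Il5ra, Il1rap and Il9r did not pass.

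**Figure D3:**
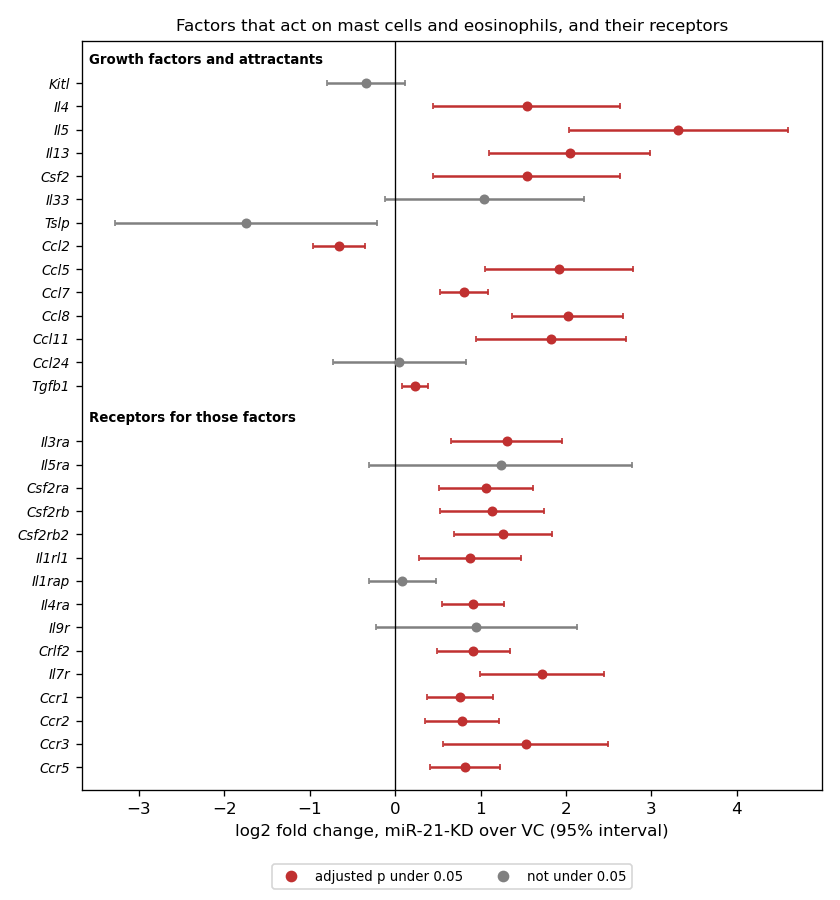
Log2 fold change of miR-21-KD over VC tumours with its 95% interval (edgeR, 4 tumours per group) for factors that act on mast cells and eosinophils and for their receptors. Il5 lies farthest above 0 at 3.32, on few VC reads. Kitl and Tslp lie below 0 without an adjusted p under 0.05, and Ccl2 is called lower.

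Genes that carry the signal of the IgE receptor to degranulation were tested as a list of 26, of which 14 were called higher and 1 lower, beside 19.6% and 19.5% of all tested genes, with a median log2 fold change of 0.48. The 4 called higher with the smallest adjusted p were the calcium channel Orai1 (log2 fold change 0.68), the kinase Fyn (0.70), the phosphatase Inpp5d (0.81) and the kinase Syk (1.18). The phospholipase Plcg2 fell, from 183 ± 38.8 to 92.4 ± 4.05 CPM (SD, n = 4 per group, log2 fold change -0.99, adjusted p = 0.00571 from edgeR). Most of these genes are shared by T cells, B cells or macrophages. The total of 15 called fell to 7 without VC 2, 6 without VC 3, 7 without miR-21-KD 1, 8 without miR-21-KD 3 and 7 without miR-21-KD 4.

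In the handling of histamine and eicosanoids, 6 of 17 tested genes were called higher and 2 lower, beside 19.6% and 19.5% of all tested genes, with a median log2 fold change of 0.19. Higher were Hnmt (1.22), which inactivates histamine, the leukotriene-forming Alox5 (1.23) and Alox5ap (0.82), and the leukotriene receptors Cysltr1 (0.99), Cysltr2 (1.43) and Ltb4r1 (1.02). Lower were the prostaglandin E synthase Ptges, from 210.3 ± 31.1 to 88.8 ± 11.3 CPM (SD, n = 4 per group, log2 fold change -1.24, adjusted p = 0.00501 from edgeR), and the leukotriene A4 hydrolase Lta4h (-0.33). The histamine transporter Slc18a2 (0.19), the prostaglandin D synthase Hpgds (-0.24) and the leukotriene C4 synthase Ltc4s (-0.12), did not pass. Hrh4, Ptgdr and Ptgdr2 had too few counts for the test.

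Because leukocyte markers as a whole had risen, the 10 genes were also set against Ptprc, which encodes the leukocyte antigen CD45. Ptprc had 203, 132, 141 and 279 CPM in the VC tumours and 481, 319.6, 322 and 375 CPM in the miR-21-KD tumours (log2 fold change 0.99, adjusted p = 0.0180 from edgeR). Per unit of Ptprc, Cpa3 was 26.8%, 35.4%, 53.9% and 12.1% of Ptprc CPM in the VC tumours and 11.4%, 17.1%, 11.6% and 12.4% in miR-21-KD tumours. In VC 1 to 3 the share lay above all miR-21-KD tumours, and VC 4 lay among them. On the log2 scale the miR-21-KD mean of the ratio to Ptprc differed from the VC mean by -1.11 for Cpa3, -0.95 for Mcpt4, -0.59 for Cma1, -0.58 for Tpsb2 and -1.05 for Fcer1a. For Kit, Ms4a2 and Hdc the differences in this ratio were -0.22, -0.57 and 0.05. For Epx, on few reads, the difference was -1.19.

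Siglecf was the member whose ratio to Ptprc was higher by more than 1 on the log2 scale in miR-21-KD tumours, by 1.26. It was 7.12%, 1.99%, 1.68% and 2.92% of Ptprc CPM in the VC tumours and 6.60%, 5.75%, 8.90% and 7.62% in miR-21-KD tumours, so that VC 1 overlapped the miR-21-KD tumours. In 0 of the 10 genes did every miR-21-KD tumour lie below every VC tumour in this ratio, against 54% of all tested genes. Without VC 4, which had the lowest protease levels and the most Ptprc of the VC tumours, this held for 4 of the 10, Cpa3, Mcpt4, Cma1 and Fcer1a. Without VC 3 it held for 1, Epx, on the log2 scale with its prior count and on few reads. It did not hold in the plain percentage, where VC 2 had 0.302% and miR-21-KD 4 had 0.312% of Ptprc CPM. The 54% refers to all 8 tumours. With a tumour left out that share was not computed, so the counts of 4 and 1 cannot be read against it. With the mean of 5 pan-leukocyte markers in place of Ptprc the count was again 0.

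**Figure D4:**
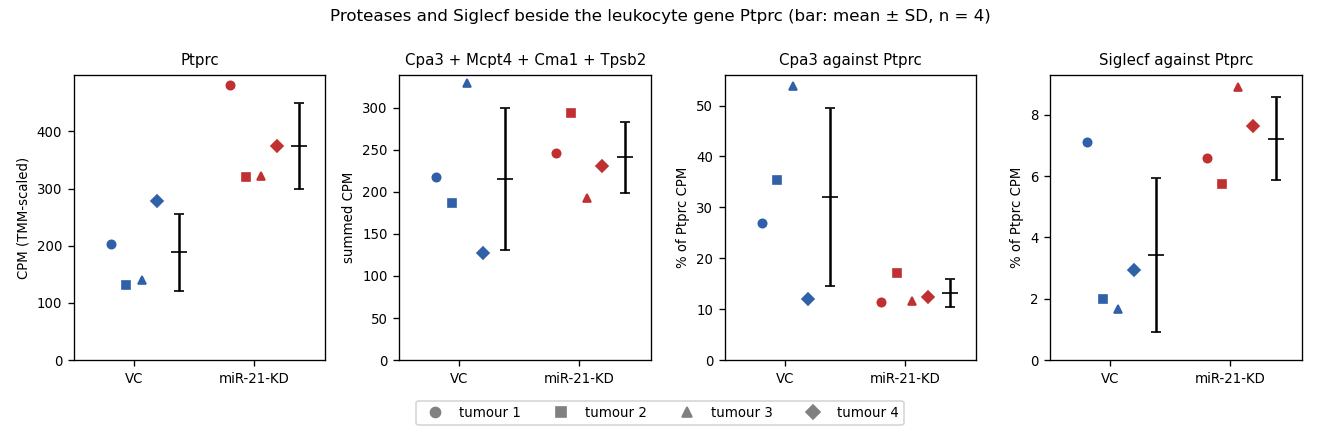
Ptprc, the summed CPM of the 4 proteases, and Cpa3 and Siglecf as a percentage of Ptprc CPM, in each tumour on linear axes from 0. Symbols mark the tumour number and bars give mean ± SD (n = 4). Ptprc is higher in every miR-21-KD tumour, while the protease sum overlaps between the groups.

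Markers of other cell types moved between the groups as well. The 5 pan-leukocyte markers were all called higher, with a summed level of 1388 to 2365 CPM in the VC tumours and 2944 to 4155 CPM in the miR-21-KD tumours. So were 9 of 11 macrophage and monocyte, 6 of 9 T cell, 7 of 8 fibroblast and 7 of 7 adipocyte markers. None of these lists had a gene called lower. For these lists and those named below, 19.6% of all tested genes were called higher and 19.5% lower. The summed adipocyte markers ranged from 103 to 415 CPM in the VC tumours and from 594 to 1714 CPM in the miR-21-KD tumours, and the fibroblast markers from 3039 to 8086 CPM and from 10497 to 23636 CPM. The share of fat and connective tissue in each sample was not measured here. None of 4 tested B cell markers was called, and VC 4 held the most B cell RNA, with a sum of 156 CPM against 1.99 to 5.89 CPM in the other VC tumours, and so did miR-21-KD 4 in its group, with 85.0 CPM against 9.48 to 13.4 CPM in the others. Of 3 keratinocyte genes tested, 2 were called higher and 1 lower, of 2 skeletal muscle genes 1 lower, and of 3 erythroid genes none. The part of these cell types in the levels of the 10 genes was not tested.

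**Figure D5:**
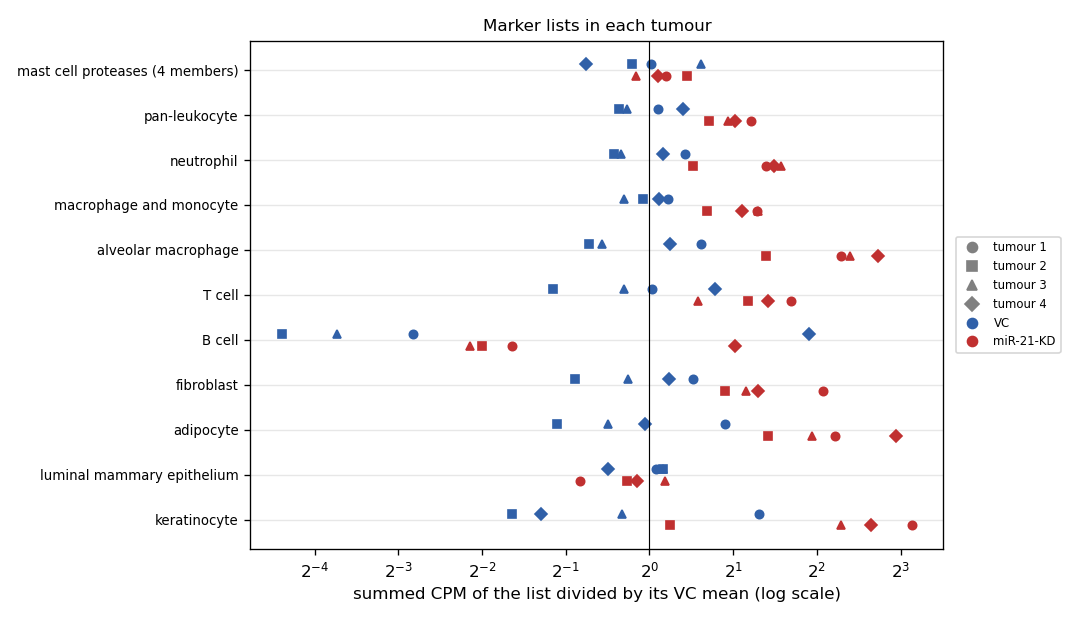
Summed CPM of the 4 mast cell proteases and of 10 marker lists in each tumour, divided by the VC mean of the list, on a log2 axis. The protease sums of the groups overlap, with VC 3 highest and VC 4 lowest, whereas the leukocyte, macrophage, fibroblast and adipocyte lists lie above all VC tumours in every miR-21-KD tumour.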

How the data were processed

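The deposited table holds raw read counts of 8 tumours, indexed by Entrez gene identifier and not normalized by the authors. The submitters' processing notes name mm10, Subread, featureCounts, edgeR and limma without versions, and whether strand was used in counting is not given in the sources used here. Every column was used. Symbols came from RefSeq GRCm38.p6 (25275 of 27179 identifiers matched), positions and exon lengths from GENCODE for GRCm38. No annotated exon of another gene overlaps those of the 10 genes. The 10 genes and all lists were chosen with earlier results of these data known, the lists from general knowledge.

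Counts were analysed in R 4.3.3 with edgeR 4.0.16 (filterByExpr by group with minimum count 10 and minimum total 15, TMM, robust quasi-likelihood test without covariates, Benjamini-Hochberg adjustment over 14382 genes, threshold 0.05). P-values measure the spread between these tumours, not between independently made pools of cells. Log2 CPM used a prior count of 2. In data simulated on this comparison with 14270 genes, 63% of 100 2-fold and 90% of 100 4-fold changes were found, with 11 false calls. Only those genes were changed in the simulation, whereas 39.1% of tested genes were called in the real data. The rates found therefore do not carry over directly. Alternatives were DESeq2 1.42.0, limma-voom (limma 3.58.1), scaling by library size or upper quartile, no filter, at least 10 counts in every tumour, a block for the replicate number, and each tumour left out. Named were all 10 genes, and of each pathway list the genes called if 8 or fewer, otherwise the 4 with the smallest adjusted p per direction, with the untested genes.

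The labels number the tumours 1 to 4 in both groups. After removal of group means, tumours of the same number correlated at 0.272, 0.421, 0.175 and 0.376. The average over the 12 remaining combinations was -0.105. Removal of group means ties this average to the same-number values with the opposite sign, so it is no independent baseline. Every same-number pair was above 0.1, although no source names a pairing. The values reported use no block, and a fit with the block was run as an alternative. Tumours of one group differed by more than sampling noise, and the groups had median totals of 12465225.5 (VC) and 12685286 (miR-21-KD) counts.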

Additional observations from a re-analysis of the deposited data

How the results depend on the processing

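With DESeq2, limma-voom, both other scalings, the stricter filter (10 counts in every tumour) and the replicate block, the same number of the 10 genes was called, 3, and it was 2 with no filter on low counts. With the replicate block the count of genes called in each list was within 1.5 times that without it, the direction of each of the 9 tested genes was the same, and Kit, Hdc and Siglecf had adjusted p of 0.0140, 0.0419 and 0.00863 (edgeR), so the block changed no call among the 9.

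With each tumour left out, the number of the 10 genes called was 0 to 3 (3 without VC 1, 0 without VC 2, 1 without VC 3, 1 without VC 4, 0 without miR-21-KD 1, 2 without miR-21-KD 2, 0 without miR-21-KD 3 and 0 without miR-21-KD 4). In these 8 fits 3 genes had an unadjusted p under 0.05, except without VC 3, where 5 did. The number called was 2 to 6 for further mast cell genes, 2 to 4 for basophil genes, 4 to 8 for further eosinophil genes and 6 to 16 for IgE receptor signalling, and the number with a lower ratio to Ptprc in every miR-21-KD tumour was 0 to 4. Over all tested genes the number called was 2936 to 6840, lowest without VC 3, and the median log2 fold change under the other scalings was -0.04 and 0.03.

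Estimates near 0 changed sign. With each tumour left out, the log2 fold change ranged from -0.29 to 0.10 for Cpa3 (above 0 without VC 3), from -0.25 to 0.16 for Fcer1a (above 0 without VC 3 or miR-21-KD 4), and from -0.22 to 0.31 for Mcpt4 (below 0 without VC 2, VC 4 or miR-21-KD 2). For Mcpt4 it was -0.016 with library size scaling and -0.028 with no filter on low counts. Where the sign changed, the adjusted p ranged from 0.518 to 0.973 (edgeR). The counts of Ms4a2 (at most 42) and Epx (at most 19) limit what can be read from both genes.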
